A study of Rattus norvegicus with 13 samples.

Results

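Galanin, neurotensin, the tachykinins and cholecystokinin are short peptides that neurons cut from larger precursor proteins, store in dense-core vesicles and release to act on G protein-coupled receptors. The medial preoptic area (MPOA) of the hypothalamus, a region involved in mating, parenting and sleep, holds neurons that make these peptides; in mice, preoptic galanin neurons are known for their part in parental behaviour. The 10 genes described here are the precursor genes Gal, Nts, Tac1 and Cck and the receptor genes Galr1, Ntsr1, Ntsr2, Tacr1, Tacr3 and Cckbr. They were chosen by gene symbol from the 14855 genes of the authors' deposited table, and all 10 were found there, each as a single Ensembl gene.

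RNA sequencing was done on MPOA tissue of adolescent male SAS Sprague-Dawley rats. All rats had been injected on both sides on postnatal day 21 (0.5 uL each) with an AAV5 vector, an adeno-associated virus that carried GFP and a short hairpin RNA (shRNA) under the U6 promoter, which is active in most cell types. In 7 samples the hairpin was scrambled, and in 6 it targeted Oprm1, which encodes the mu opioid receptor. The label of 1 of these 6 sets it aside as an outlier. By the labels, then, 12 samples stand behind the comparison, 5 against 7, though the deposited comparison does not list its samples. The MPOA was cut out of 200 micron sections, −0.24 to −0.72 mm from bregma, and the age at collection is given as adolescence. The labels do not say that each sample is 1 animal, so a p-value reflects only the spread among samples, which may be technical in part. The files give a fold change, a mean abundance and a likelihood ratio statistic per gene and no values for single samples, so whether the groups overlap cannot be shown, and depth per sample is unknown.

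The question put to the 10 genes is whether peptides or receptors of these 4 systems differed between Oprm1 shRNA and scrambled shRNA. At an adjusted p under 0.05, 0 of the 10 genes differed in the authors' deposited edgeR table, beside 0.0202% of all genes. At an unadjusted p under 0.05 there was 1 of the 10, the neurotensin receptor gene Ntsr1, beside 4.39% of all genes, 1.49% in the direction of a higher level with Oprm1 shRNA, per the authors' deposited table. Each of the 10 had an adjusted p of 0.9997 per the authors' deposited table. The log2 fold change was above 0 for 7 genes and below 0 for 3, with a median of 0.25 per the authors' deposited table. Over all genes 48.4% were above 0 and the median was −0.02 per the authors' deposited table. The median size of the log2 fold change, without its sign, was 0.39 for the 10 genes and 0.35 for all genes there.

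**Figure D1:**
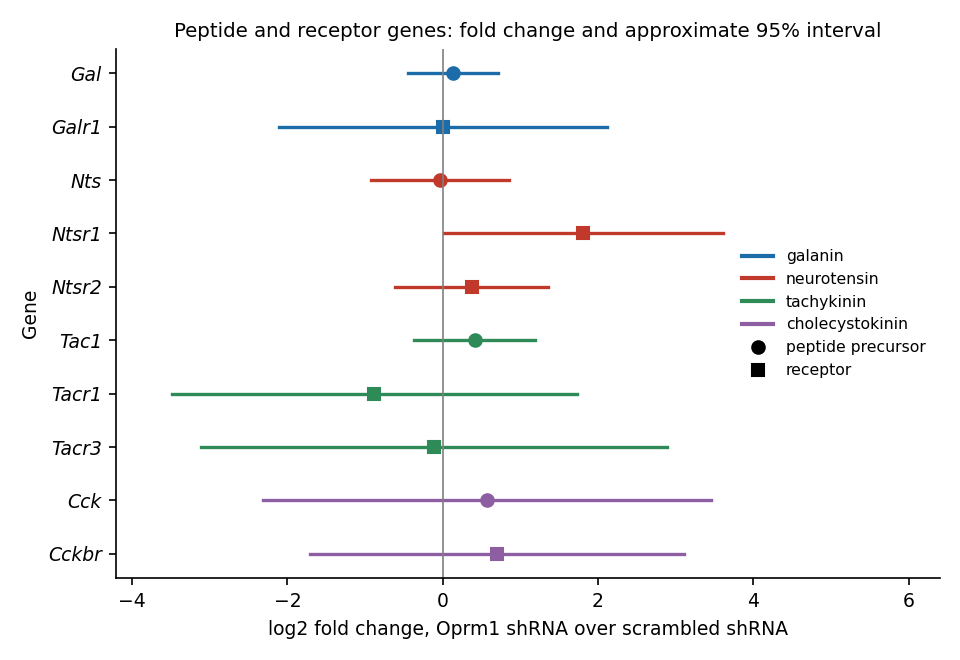
The log2 fold change of Oprm1 shRNA over scrambled shRNA (horizontal axis) is drawn for each of the 10 genes, with circles for precursors, squares for receptors, colours for the peptide systems and lines for the approximate 95% interval. The interval of Ntsr1 starts just above 0, and those of the other 9 genes span 0.

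The fold estimates of the 4 precursor genes lay between 0.976 and 1.48, and each interval spanned 1. Gal, which encodes galanin and the galanin message-associated peptide, averaged 64.1 CPM, which is reads scaled to the size of each library, per the authors' deposited table. Its level with Oprm1 shRNA was 1.10-fold that with scrambled shRNA, with an approximate 95% interval from 0.737 to 1.64, computed from the authors' deposited table (unadjusted p = 0.643). This was the narrowest interval of the 10 genes on the log scale. Values above 1.64-fold or below 0.737-fold lie outside this approximate interval. Since the tissue is bulk, fewer cells that make a peptide and less RNA per cell cannot be told apart, here and for every gene below.

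Nts, the gene of neurotensin and neuromedin N, averaged 81.5 CPM and had a fold of 0.976 (0.527 to 1.81) from the authors' deposited table (unadjusted p = 0.939). Its fold change was near 0 on the log scale but less precise than that of other genes of its abundance. The standard error implied per the authors' deposited table was 0.454 on the log2 scale for Nts, 1.55 times the median of 0.293 among the 2102 genes within 0.5 log2 CPM of it. For Gal the same ratio was 0.884.

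Tac1, which encodes substance P and neurokinin A, averaged 37.6 CPM and had a fold of 1.33 (0.773 to 2.28) from the authors' deposited table (unadjusted p = 0.304). This was the second smallest p among the 10 genes. Cck, the cholecystokinin gene, averaged 4.25 CPM, the lowest of the 10, with a fold of 1.48 (0.201 to 10.9) from the authors' deposited table (unadjusted p = 0.699). This interval leaves room for a several-fold fall or a several-fold rise of Cck. CPM is not scaled by transcript length, so these abundances bear on precision and do not rank the genes by transcript number.

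The receptor genes were measured less precisely than most of the precursors, since 5 of the 6 lay between 4 and 16 CPM. Ntsr1 encodes the high-affinity neurotensin receptor, which acts mainly through Gq proteins. It averaged 12.7 CPM, and its level with Oprm1 shRNA was 3.51-fold that with scrambled shRNA, with an interval from 1.01 to 12.2 from the authors' deposited table. The log2 fold change was 1.81 with an implied standard error of 0.916, an unadjusted p of 0.0482 and rank 626 by p among all genes of the authors' deposited table. The lower end of the interval lies next to 1, and after adjustment over all genes Ntsr1 did not pass.

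Ntsr1, which had the smallest p of the 10 genes, was also set beside genes of like abundance. The shares below take no account of its being the smallest of 10. Between 4 and 16 CPM, 1.02% of 3541 genes had an unadjusted p under 0.05 per the authors' deposited table, and 0.48% had one and were higher with Oprm1 shRNA. In this range 120 genes, or 3.39%, had a log2 fold change as large as that of Ntsr1 or larger per the authors' deposited table. Among the 2160 genes within 0.5 log2 CPM of Ntsr1, Ntsr1 included, 17 had a p as small or smaller, or 0.787%, and 23 a log2 fold change as large or larger per the authors' deposited table. The standard error of Ntsr1 was 0.905 times the median of those genes. With that median of 1.01 in place of its own standard error, a setting chosen after the values were seen, the p of Ntsr1 was 0.0736 from the authors' deposited table and no gene of the 10 stayed under 0.05. Ntsr1 and its ligand gene Nts had log2 fold changes of 1.81 and −0.03 per the authors' deposited table; the difference between these genes was not tested.

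**Figure D2:**
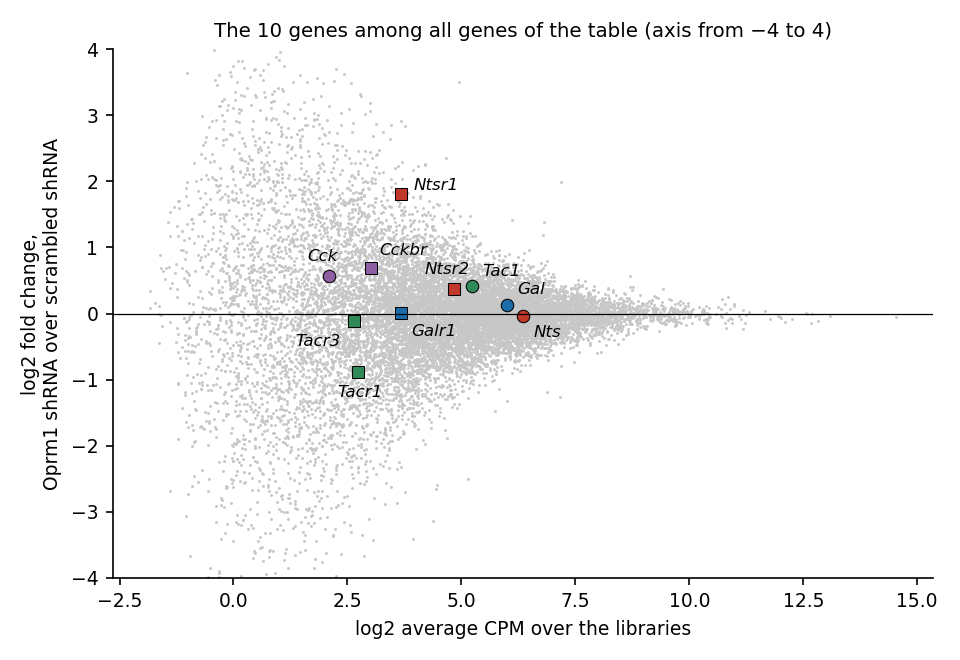
Each grey point is a gene of the authors' deposited table, by the log2 of its average CPM (horizontal axis) and its log2 fold change of Oprm1 shRNA over scrambled shRNA (vertical axis, with genes of larger fold change outside the drawn range); circles are precursors and squares receptors. Ntsr1 lies at the upper edge of the genes of its abundance, and the other 9 lie within the cloud.

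Ntsr2, the low-affinity neurotensin receptor gene, expressed by astrocytes as well as neurons, averaged 28.5 CPM. Its fold was 1.29 (0.653 to 2.56) from the authors' deposited table (unadjusted p = 0.461), the most precise value among the receptors. Of 11 astrocyte markers 3 were higher and 8 lower in the same comparison, and the median log2 fold change was −0.14 with 0 past the adjusted threshold per the authors' deposited table. Their part in the value of Ntsr2 was not tested. The astrocyte markers of smallest p were the glutamate transporter gene Slc1a2 at a log2 fold change of −1.47 (unadjusted p = 0.0275) and the filament gene Gfap at 0.37 per the authors' deposited table.

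Galr1, the gene of a Gi-coupled galanin receptor, had the fold change nearest to even of the 10. It averaged 12.7 CPM with a log2 fold change of 0.0055 from the authors' deposited table (unadjusted p = 0.996). The interval of its fold ran from 0.232 to 4.34. The point estimate near 1 does not show equal levels, since the interval leaves room for a rise or a fall of several fold.

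Among the receptor genes, those for the tachykinins had the largest standard errors. Tacr1, the substance P receptor gene, averaged 6.66 CPM with a fold of 0.543 (0.0893 to 3.31) from the authors' deposited table (unadjusted p = 0.508). It had the lowest fold change of the 10 genes. Tacr3, the neurokinin B receptor gene, averaged 6.24 CPM with a fold of 0.926 (0.116 to 7.39) from the authors' deposited table (unadjusted p = 0.942). Its interval was the widest of the 10 genes on the log scale. Cckbr, the main cholecystokinin receptor gene of the brain, averaged 8.07 CPM with a fold of 1.62 (0.305 to 8.59) from the authors' deposited table (unadjusted p = 0.572). Cck and Cckbr were both above even, with 1 well inside each interval.

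**Figure D3:**
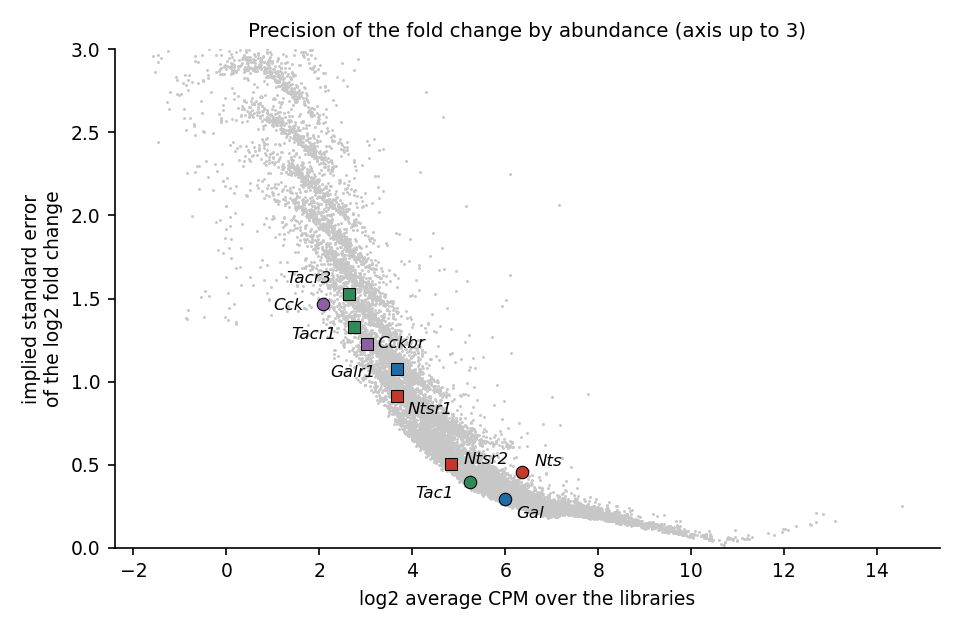
The standard error of the log2 fold change implied by the authors' likelihood ratio (vertical axis, drawn up to 3) is plotted against the log2 of the average CPM (horizontal axis), with all genes in grey, precursors as circles and receptors as squares. Nts stands above the genes of its abundance, at 1.55 times their median. For 8 of the 10 genes the standard error lies below the median of the genes of their own abundance.

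The size of estimated change that would clear its own interval differed widely among the 10 genes. A difference clears its own 95% interval at 1.49-fold for Gal, 1.72-fold for Tac1, 1.85-fold for Nts and 1.98-fold for Ntsr2, by the standard errors from the authors' deposited table. It does so at 3.47-fold for Ntsr1, 4.32-fold for Galr1 and 5.31-fold for Cckbr. For Tacr1, Cck and Tacr3 the values were 6.09-fold, 7.36-fold and 7.97-fold. To pass the adjusted threshold, beside the 3 genes of the table that did, a gene needed an unadjusted p of about 1.35e-05. That corresponds to 2.43-fold for Gal and 15.9-fold for Ntsr1 at their standard errors from the authors' deposited table. Oprm1 itself, the target of the hairpin, at 7.32 CPM, had a fold of 0.670 (0.0715 to 6.27) per the authors' deposited table. At this standard error an estimated reduction short of 9.37-fold would not have cleared 1, so the group labels are not checked by Oprm1.

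Other genes of the same systems gave no call either. Of 19 listed ligand and receptor genes, the 10 included, 15 were measured, with 9 higher, 6 lower and a median log2 fold change of 0.14 per the authors' deposited table, and 0 passed the adjusted threshold. Galp, Galr3, Tac4 and Tacr2 were not in the table. Galr2, a further galanin receptor gene, averaged 6.76 CPM with a log2 fold change of −0.47 per the authors' deposited table (unadjusted p = 0.712). Sort1, the gene of sortilin, a sorting receptor that also binds neurotensin, averaged 335 CPM and had a fold of 0.862 (0.691 to 1.08) from the authors' deposited table (unadjusted p = 0.187). Tac3, which in rats encodes neurokinin B, the ligand of the Tacr3 receptor, had a fold of 1.38 (0.758 to 2.51) at 40.0 CPM from the authors' deposited table (unadjusted p = 0.292). Tac1 and Tac3, the tachykinin precursors, thus had log2 fold changes of 0.41 and 0.46 per the authors' deposited table, each with an interval that includes 0.

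The cholecystokinin list held 1 more unadjusted p under 0.05, that of Gast. With Ntsr1 this made 2 of the 15 measured genes of the 4 systems, beside 4.39% of all genes per the authors' deposited table. Cckar, the receptor gene best known from the gut, averaged 3.09 CPM with a log2 fold change of 0.21 per the authors' deposited table (unadjusted p = 0.928). Gast, the gastrin gene, whose peptide shares its active end with cholecystokinin, was at 1.15 CPM with a log2 value of −8.17, as fitted in the authors' deposited table (unadjusted p = 0.0189). Such a value can arise when reads are nearly absent from 1 group, but the reads of single samples were not seen. The implied standard error of Gast was 3.48 on the log2 scale, so its value is not read as a fold.

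The machinery that makes and clears these peptides was likewise not called. Of 11 measured genes of peptide processing and dense-core granules 3 were higher and 8 lower, and the median log2 fold change was −0.04 with 0 past the adjusted threshold per the authors' deposited table. The smallest p among them belonged to Cadps2, a protein of dense-core vesicle release, with a fold of 1.27 (0.930 to 1.74) from the authors' deposited table, and to Cpe, the carboxypeptidase that trims peptide ends, with 1.05 (0.965 to 1.15). Pcsk1n was not in the table. Of 8 peptidases known to cut 1 or more of these peptides 4 were higher and 4 lower, with a median of 0.01 per the authors' deposited table, and 0 passed. Nln, the gene of neurolysin, which cleaves neurotensin, had a fold of 0.550 (0.325 to 0.930) at 36.3 CPM from the authors' deposited table, with an unadjusted p of 0.0256 and an adjusted p of 0.9997. Tpp2, a peptidase gene known for the cleavage of cholecystokinin, had a log2 fold change of 0.30 per the authors' deposited table (unadjusted p = 0.342).

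Genes of the Gq pathway, through which the Ntsr1, Tacr1, Tacr3 and Cckbr receptors act, were lower in 9 of 12 and higher in 3, and the median log2 fold change was −0.15 with 0 past either threshold per the authors' deposited table. Plcb1, a phospholipase C, had a fold of 0.668 (0.417 to 1.07) from the authors' deposited table (unadjusted p = 0.0940). Prkca, a protein kinase C, had a log2 fold change of −1.01 there (unadjusted p = 0.146).

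**Figure D4:**
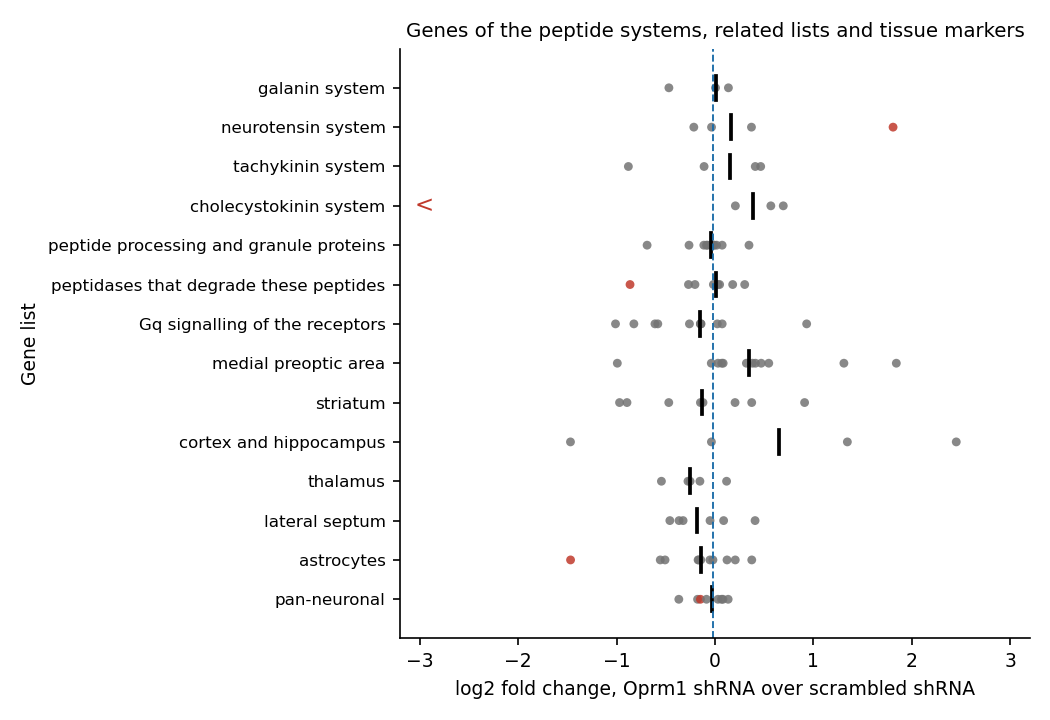
Each point is a gene of a list (vertical axis) by its log2 fold change of Oprm1 shRNA over scrambled shRNA (horizontal axis), red at an unadjusted p under 0.05; black bars are list medians, the dashed line is the median of all genes, and the mark < stands for Gast at −8.17, outside the axis. Ntsr1, Nln, Slc1a2, Map2 and Gast are the red marks, and none passed the adjusted threshold.

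Markers were read for the tissue and its neighbours, because Tac1 is also abundant in striatal projection neurons, Cck in cortex and Nts in lateral septum. All 12 markers of the preoptic area were in the table, among them Esr1, the estrogen receptor alpha gene, at 41.8 CPM and Calcr, the calcitonin receptor gene, at 360 CPM per the authors' deposited table. The preoptic transcription factor gene Hmx3 was near the floor at 1.03 CPM per the authors' deposited table. Of these 12, 10 were higher and 2 lower, and the median log2 fold change was 0.35, with Pgr (−0.99) and Hmx2 (1.84) of smallest p, and 0 had an unadjusted p under 0.05 per the authors' deposited table. Striatal markers had 3 of 8 higher and a median of −0.13 there, and Penk, the enkephalin precursor gene, had a log2 fold change of 0.20. Markers of cortex and hippocampus summed to 17.2 CPM over the 4 measured, with 2 higher and 2 lower per the authors' deposited table. Their median log2 fold change was 0.65, with Tbr1 at 2.45 and 3.10 CPM (unadjusted p = 0.277) per the authors' deposited table. Neurod6 and Emx1 were not in the table. Slc17a7, the vesicular glutamate transporter gene of cortical neurons, was at −1.47 and 0.785 CPM (unadjusted p = 0.698) per the authors' deposited table. Lateral septal markers had 2 of 6 higher and a median log2 fold change of −0.19, with Dgkg (0.41) and Zic1 (−0.32) of smallest p per the authors' deposited table. Thalamic markers had 1 of 5 higher and a median of −0.25, with Calb2 (−0.25) and Prkcd (−0.27) of smallest p, and pan-neuronal markers had 4 of 8 higher and a median of −0.03, with Map2 (−0.15, unadjusted p = 0.00635) and Syt1 (−0.18) of smallest p, per the authors' deposited table. The part of these tissues in the values of the 10 genes was not tested.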

How the data were processed

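MPOA RNA was sequenced from 13 labelled samples. Per the submitters' processing notes the tools were edgeR 3.28.0, RSEM, STAR 2.5.3a and bcl2fastq 2.20, with the build Rnor_6.0. Filter, dispersion, covariates, strand and annotation release were, in the sources used here, not stated. The authors deposited 1 table of their edgeR comparison, with a log2 fold change (positive where Oprm1 shRNA was higher), the log2 average CPM, a likelihood ratio (LR, a score) and unadjusted and Benjamini-Hochberg adjusted p-values. The deposited p-values equal a chi-square tail with 1 degree of freedom at the LR, and the adjusted ones imply 14859 tests, 4 more than the genes used here.

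The planned case of a table without values per sample applied, so no count fit was run. An implied standard error was computed as the absolute log2 fold change over the square root of the LR, with an approximate 95% interval. This takes the root of the LR for a normal deviate, and how well it holds at low abundance was not tested. Between 4 and 16 CPM the intervals of 3505 of 3541 genes included 1. That is more than 95%, so intervals in this range may be wider than their stated level. RSEM divides reads among similar transcripts by estimate. The members and lists were chosen with earlier results of these data known. All 10 members are named, all measured genes of the 4 peptide systems, and the 2 of smallest p in each other list; Oprm1, Esr1, Calcr, Hmx3 and Slc17a7 were added after their values were seen. Of the genes this rule names, 2 are not reported here. The alternatives changed the adjustment, the threshold, a minimum of abundance, the centring and the standard error. The planned description of protein sequences was not made. Coordinates are not printed, since the gene table at hand is of another assembly than the authors' build. Python 3.11.15, numpy 2.4.6, pandas 2.3.3, scipy 1.17.1 and matplotlib 3.10.9 were used.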

Additional observations from a re-analysis of the deposited data

How the results depend on the processing

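The count of 0 members past the adjusted threshold was 0 in each of the 5 alternatives run: the adjustment redone over the genes of the table or over those of log2 CPM of at least 0 or 2, and thresholds of 0.1 and 0.2. With a smallest unadjusted p of 0.0482 among the 10 genes, these alternatives could hardly have given another count. The count of 1 at an unadjusted p under 0.05 was 1 at a p under 0.1. Minima of log2 CPM 0 and 2 remove none of the 10 members, so they leave this count and the median as they are by construction. It was 0 with the median standard error of genes of like abundance, an alternative chosen after the data were seen, where the smallest p was 0.0736. The median log2 fold change of 0.25 was 0.25 as a mean weighted by precision. Of 30 alternative values for single genes 29 kept direction and side of the threshold, the exception being Ntsr1 with that standard error. The centring moved each log2 fold change by no more than about 0.02, and the standard error setting leaves it unchanged. Most of these 29 were therefore set by construction. No paired analysis was possible because values per sample were not analysed here, and leaving out single samples was not run for the same reason. Abundance limits Cck, Tacr1, Tacr3 and Cckbr most.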
